A study of Mus musculus with 36 samples.

Results

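The cytosolic chaperones described here are Hspa8, Hsp90ab1, Hsp90aa1 and Dnajb1, 4 transcripts chosen by their Ensembl identifiers among 17478 transcripts listed in at least 1 library. Hspa8 (ENSMUST00000015800), Hsp90ab1 (ENSMUST00000024739) and Dnajb1 (ENSMUST00000005620) were listed, and their coding lengths recovered from the values were 647, 725 and 341 codons. The identifier given for Hsp90aa1 (ENSMUST00000021698) had no value in any of the 36 lists, so Hsp90aa1 is not analysed here. All results are therefore on 3 of the 4 chaperones. Mouse embryonic fibroblasts of strain C57BL/6J were exposed to hyperosmotic stress with sorbitol added to the medium, and ribosome footprints and RNA of cytoplasmic extracts were sequenced with 2 libraries per condition and assay. Stressed cells spent 2 h at 500, 600 or 700 mOsm, or 15 min at 700 mOsm. In what follows the exposures to 700 mOsm are called the short stress (15 min) and the long stress (2 h). Recovering cells were released from either of these for 15 min or 2 h. The cells set against them were unstressed cells grown in the same medium without added sorbitol. Each sample pooled several plates of cells, and the labels do not say whether the cultures were primary or immortalised. The lists hold transcript identifiers without gene names, so fibroblast markers and the wider chaperone network were not counted.

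Hspa8 encodes Hsc70, the constitutive cytosolic Hsp70 that binds exposed hydrophobic stretches of nascent and misfolded proteins in a cycle driven by ATP. Dnajb1 encodes Hsp40, a J-domain co-chaperone that delivers clients to Hsp70 and stimulates its ATPase, and Dnajb1 is a classical target of heat shock factor Hsf1. Hsp90ab1 encodes Hsp90 beta, the constitutive cytosolic Hsp90 that receives kinases, steroid receptors and other clients from Hsp70 for late steps of folding, and Hsp90aa1 encodes its stress-inducible counterpart. Hyperosmotic stress draws water out of cells, crowds the cytoplasm and represses translation of most messages.

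Footprint values are RPKM, reads scaled by coding length and library size, as deposited. RNA values are FPKM, fragments scaled by transcript length and library size, also as deposited. Both compare a transcript with the others of its library, as do the scaled changes below. A gain or loss shared by all transcripts therefore cannot be seen. Higher, lower, rose and fell are meant in this relative sense throughout. Listed reads per library ranged between 734083 and 9124787 for footprints and between 6851952 and 55262318 for RNA, with the footprint libraries of 700 mOsm the shallowest. Changes are log2 differences after scaling each library to the median ratio over abundant transcripts. In footprints this scaling differs from the deposited values by 0.56 for the short stress and 0.47 for the long stress on the log2 scale relative to unstressed cells, which the text states wherever it matters. The 2 footprint libraries of a condition differed by about sampling noise, with a chi-square per degree of freedom between 1.01 and 1.09 over transcripts, and were counted as 1 sample. Footprint changes therefore carry a 95% interval of counting error and no test, whereas RNA changes were tested with limma on 2 libraries per condition. The labels do not say that these came from separate cultures, so the p-values measure only the spread between libraries, which may be technical. Deposited file names of the RNA libraries labelled 15 min of stress with 2 h of recovery and of those labelled 2 h of stress with 15 min of recovery read as if the groups were exchanged, and both groups are named by their labels throughout. In bulk samples less RNA per cell and fewer cells with the RNA cannot be told apart, and reads that Hspa8 and Hsp90ab1 share with their paralogs and pseudogenes could have been split by the counting, which the sources used here do not describe.

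The 3 chaperones parted after 2 h of stress. Relative to other transcripts, ribosome footprints of the Hsp70 Hspa8 were higher at 500 mOsm, 600 mOsm and after 2 h at 700 mOsm than in unstressed cells. Those of Hsp90ab1 and of the co-chaperone Dnajb1 were lower at every stress. Under the short stress Hspa8 footprints were lower as well, at -0.69 on the log2 scale, or -1.25 as deposited. For Hsp90ab1 and Dnajb1 RNA moved far less than footprints under stress. The largest fitted RNA change under stress was 0.58 on the log2 scale, that of Hspa8 under the long stress, beside a footprint change of 1.09, or 0.49 beside 0.62 on values as deposited. In the cells released from stress the footprint value farthest from unstressed cells was that of Dnajb1 at 15 min of release from the short stress, at -0.46 on the log2 scale. Dnajb1 RNA was highest at 2 h of release from the long stress.

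Hspa8, on chromosome 9 (GRCm38.p6, 40801276 to 40805202), is the Hsc70 gene. Its footprints in the 2 libraries of each condition were 3262 and 3301 RPKM in unstressed cells, 4564 and 4576 RPKM at 500 mOsm for 2 h, 4786 and 4759 RPKM at 600 mOsm for 2 h, and 5023 and 5034 RPKM under the long stress. The order by osmolarity at 2 h was the same in both libraries, which count as 1 sample, and no condition overlapped another. Under the short stress the footprints were 1389 and 1368 RPKM, the lowest of the 9 conditions. The share of all footprint reads on Hspa8 was 0.632% and 0.640% in unstressed cells, 0.273% and 0.268% under the short stress, and 0.989% and 0.988% under the long stress. The share was thus higher than in unstressed cells after 2 h of the strongest stress and lower after 15 min of it.

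Scaled Hspa8 footprints changed by 0.39 at 500 mOsm (interval 0.38 to 0.41), 0.42 at 600 mOsm (0.40 to 0.43) and 1.09 under the long stress (1.07 to 1.12) against unstressed cells. The change under the short stress was -0.69 (-0.73 to -0.65). Values as deposited kept these directions but gave 0.62 in place of 1.09 and -1.25 in place of -0.69, so whether Hspa8 passed 2-fold at 700 mOsm depends on the scaling in both exposures. Among 8849 transcripts the Hspa8 change was above that of 91.4% at 500 mOsm, 78.8% at 600 mOsm, 53.7% under the short stress and 84.9% under the long stress, and the medians of all transcripts were -0.13, -0.41, -0.92 and -0.91 in that order. The low value at 15 min thus stood slightly above the median of all transcripts. Between the exposures at 700 mOsm, 2 h against 15 min gave a change of 1.78 (1.74 to 1.83), or 1.87 as deposited. Among the 2848 transcripts with at least 1000 reads in unstressed cells, Hspa8 stood above 82.5% under the long stress and above 40.9% under the short stress.

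Hsp90ab1, on chromosome 17 (45567778 to 45573261), encodes Hsp90 beta. Its footprints were 3686 and 3680 RPKM in unstressed cells, 2921 and 2900 RPKM at 500 mOsm, 1622 and 1612 RPKM at 600 mOsm, and 921 and 851 RPKM under the long stress. Each step of osmolarity at 2 h had lower values than the step before it, in the reverse of the Hspa8 order. The values of 575 and 590 RPKM under the short stress were the lowest of all conditions for Hsp90ab1 as for Hspa8. Scaled changes against unstressed cells were -0.42 (-0.44 to -0.41) at 500 mOsm, -1.31 (-1.33 to -1.29) at 600 mOsm, -2.10 (-2.16 to -2.04) under the short stress and -1.58 (-1.64 to -1.54) under the long stress. The difference of 700 mOsm from 600 mOsm at 2 h was sensitive to scaling, at -0.27 scaled and -0.87 as deposited. At 500 mOsm, 600 mOsm, the short stress and the long stress the Hsp90ab1 change lay above 34.4%, 29.2%, 33.5% and 36.6% of transcripts. Among the 2848 transcripts with at least 1000 reads in unstressed cells it was above 25.8%, 24.6%, 19.5% and 26.9% in that order. Both sets of positions are in the lower part of the distribution but not at its edge.

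Dnajb1, on chromosome 8 (83608175 to 83612653), had 20.6-fold fewer footprints per length than Hspa8 in both unstressed libraries. They were 159 and 160 RPKM in unstressed cells, 103 and 92.7 RPKM at 500 mOsm, 36.5 and 39.7 RPKM at 600 mOsm, and 24.9 and 23.4 RPKM under the long stress. The order by osmolarity was downward in both libraries, which count as 1 sample, in these deposited values, as for Hsp90ab1. In the short stress Dnajb1 was not listed in replicate 1 and had 9.06 RPKM, or 10 reads, in replicate 2. Scaled changes against unstressed cells were -0.78 (-0.90 to -0.68) at 500 mOsm, -2.16 (-2.41 to -1.98) at 600 mOsm and -2.21 (-2.74 to -1.81) under the long stress, the last from 41 reads against 2420 reads. After scaling, Dnajb1 did not differ beyond counting error between 700 and 600 mOsm at 2 h, at -0.06 (-0.58 to 0.43). As deposited the change was -0.64, outside that interval, so whether these conditions differ depends on the scaling.

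The Dnajb1 value under the short stress rests on few reads, and the footprint lists of that condition held no transcript under 5 reads. With the unlisted library taken as 0, the mean of log2 values gave -5.35 and the summed reads gave -4.40 (-5.46 to -3.52) against unstressed cells. With 5 reads assumed in the unlisted library the summed reads gave -3.82, a 14.1-fold lower value at that assumption, with no counting error included. Leaving out replicate 1 of that condition gave -3.39. Leaving out replicate 2 gave -7.25, which holds no Dnajb1 read of the short stress and depends on the 1 added before the log2. With the unlisted library taken as 0 the change was above that of 1.90% of transcripts, against 15.2% at 600 mOsm and 24.4% under the long stress. Among the 2848 transcripts with at least 1000 reads in unstressed cells these positions were 1.76%, 13.6% and 12.8% in that order. Under the long stress Dnajb1 was higher than at 15 min, by 2.15 from summed reads (1.13 to 3.31) and by 1.56 under the same assumption of 5 reads. The mean of log2 values gave 3.14 for this step, or 1.23 without replicate 1 and 5.05 without replicate 2 of the 15 min exposure. The last again holds no Dnajb1 read of that exposure.

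**Figure D1:**
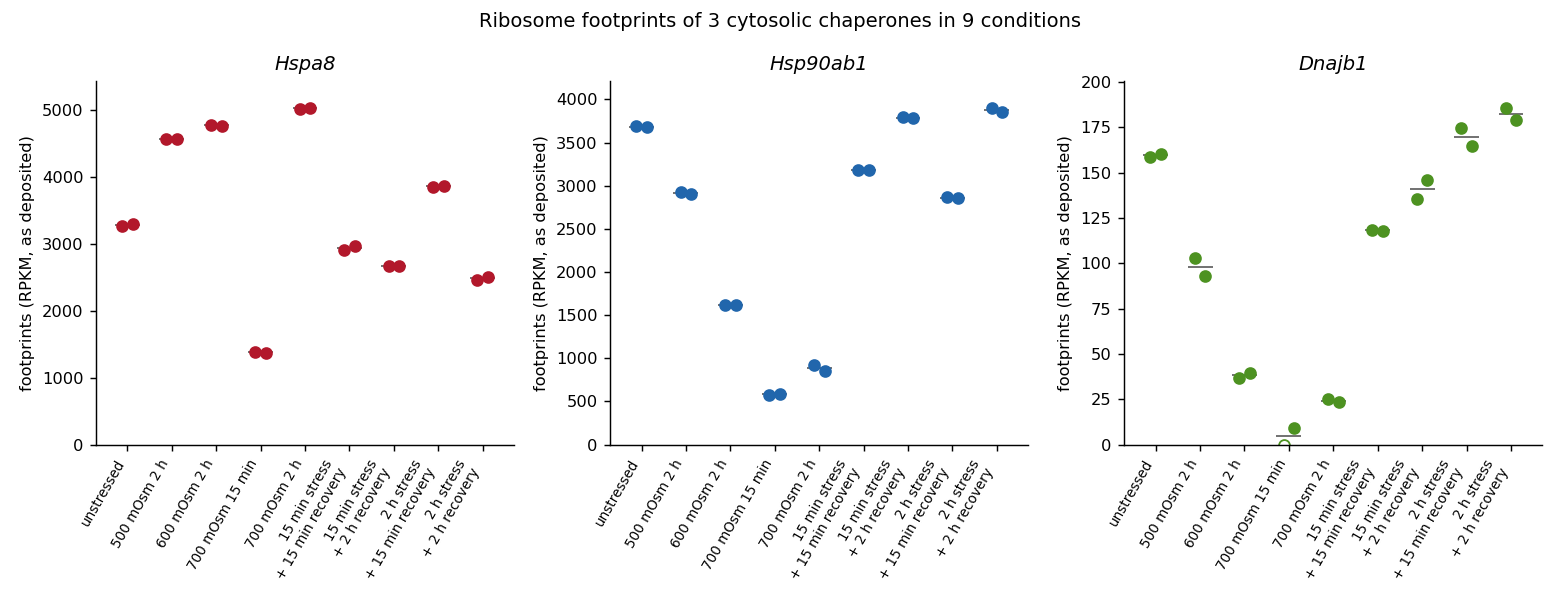
Ribosome footprints of Hspa8, Hsp90ab1 and Dnajb1 in RPKM as deposited (vertical axes) across the 9 conditions (horizontal axes); points are the 2 libraries, bars their mean, and the open Dnajb1 point is the library in which it was not listed. At 2 h Hspa8 is higher at each osmolarity up to 5034 RPKM, whereas Hsp90ab1 and Dnajb1 are lower, and all 3 are lowest under the short stress.

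Counted together, footprints at least 2-fold lower than in unstressed cells were seen for 2 of 3 chaperones at 600 mOsm, under the short stress and under the long stress, Hsp90ab1 and Dnajb1 each time. In the same comparisons 35.4%, 48.9% and 47.8% of 8849 transcripts were at least 2-fold lower. Hspa8 alone was at least 2-fold higher, under the long stress, where 16.2% of transcripts were. At 500 mOsm none of the 3 reached 2-fold, and 17.5% of transcripts did. The median change of the 3 chaperones, which is that of Hsp90ab1 at each stress, was below the median of all transcripts at every stress. Medians were also taken over the 2848 transcripts with at least 1000 reads in unstressed cells. They were -0.25 at 600 mOsm, -0.25 under the short stress and -0.59 under the long stress. With so many of all transcripts changed, the counts of 2-fold changes by themselves do not set the chaperones apart. Such shares were not counted among the 2848 transcripts.

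**Figure D2:**
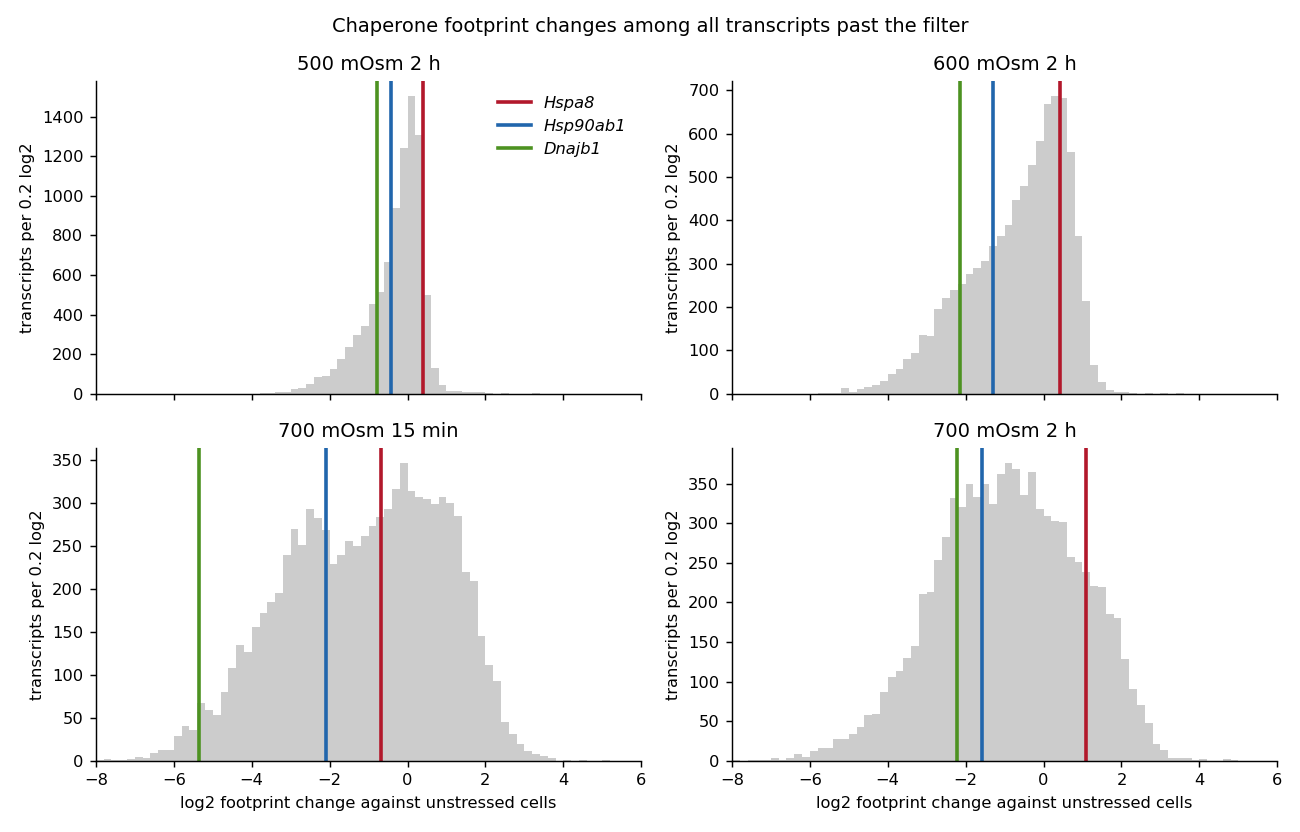
Distribution of the log2 footprint change against unstressed cells over 8849 transcripts at 4 stresses (grey bars, number of transcripts per bin), with lines for the 3 chaperones. Hspa8 lies to the right of the median in all 4 panels, at 1.09 against a median of -0.91 under the long stress, and Dnajb1 under the short stress is drawn at -5.35, with its unlisted library as 0. Under the short stress Hspa8, at -0.69, was below the median of transcripts with at least 1000 reads in unstressed cells, -0.25.

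The ratio of Hspa8 to Hsp90ab1 within a library does not depend on scaling. In footprints it was 0.885 and 0.897 in unstressed cells, 1.56 and 1.58 at 500 mOsm, 2.95 and 2.95 at 600 mOsm, and 5.45 and 5.92 under the long stress. Hsp90 beta thus had more footprints per length than Hsc70 without stress and fewer at every stress. The ratio under the short stress was 2.42 and 2.32, so Hspa8 already exceeded Hsp90ab1 while both were at their lowest. The ratio in RNA stayed between 1.16 and 1.71 in all 18 libraries, with 1.71 and 1.63 under the long stress and 1.33 and 1.19 in unstressed cells. Recovery from the short stress gave footprint ratios of 0.918 and 0.931 at 15 min and of 0.704 and 0.708 at 2 h, and recovery from the long stress gave 1.35 and 1.35 at 15 min and 0.632 and 0.651 at 2 h. At 15 min of release from the long stress Hspa8 was still above Hsp90ab1, and after 2 h it was below it in both recovery arms.

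**Figure D3:**
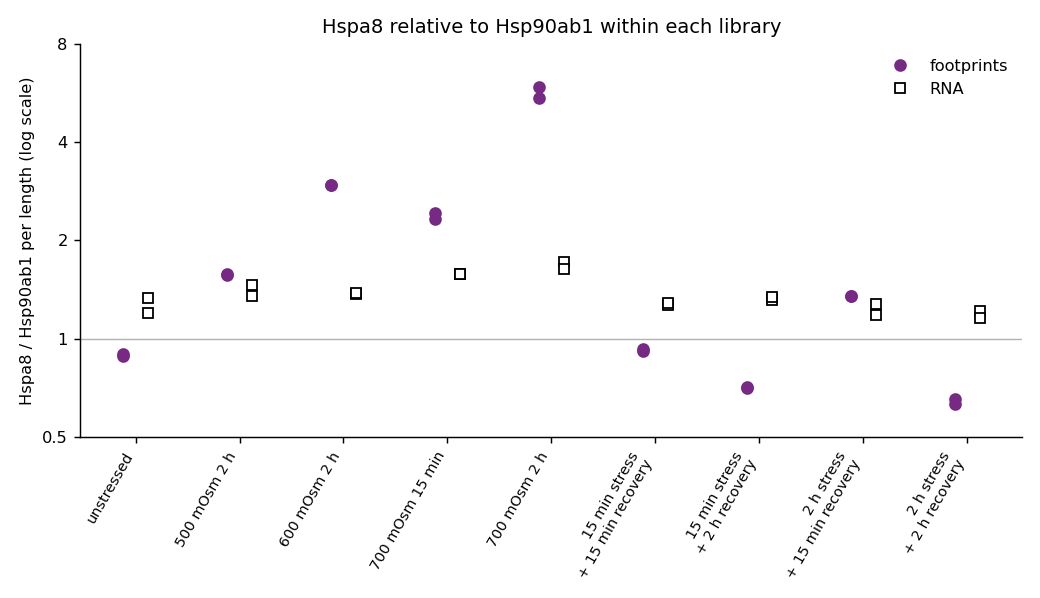
Ratio of Hspa8 to Hsp90ab1 per length (vertical axis, log scale) in each library of the 9 conditions (horizontal axis); filled circles are footprints and open squares RNA. The footprint ratio reaches 5.92 under the long stress against 0.885 and 0.897 in unstressed cells, whereas the RNA ratio stays between 1.16 and 1.71.

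RNA of the chaperones was steadier. Hspa8 RNA was 2263 and 2070 FPKM in unstressed cells, 2475 and 2358 FPKM at 500 mOsm, 2439 and 2461 FPKM at 600 mOsm, and 3083 and 2977 FPKM under the long stress. Under the short stress it was 2569 and 2618 FPKM. All stressed libraries were above both unstressed libraries, whose values differed by 9.32%. Hspa8 RNA rose by 0.58 under the long stress (SE 0.0604, limma adjusted p = 1.31e-06) and by 0.32 under the short stress (SE 0.0526, limma adjusted p = 0.000132) against unstressed cells. The rise of 0.19 at 600 mOsm (limma adjusted p = 0.0296) did not hold without replicate 1 or without replicate 2 of that condition (limma adjusted p = 0.0612 and 0.0849). At 500 mOsm the change was 0.17 (limma adjusted p = 0.145), and it passed without replicate 1 of the unstressed cells (limma adjusted p = 0.00226). Hspa8 RNA was thus higher and its footprints lower under the short stress.

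Hsp90ab1 RNA was the flattest of the 3, with 1698 and 1732 FPKM in unstressed cells, 1696 and 1748 FPKM at 500 mOsm, 1783 and 1786 FPKM at 600 mOsm, and 1802 and 1825 FPKM under the long stress. It had 1624 and 1654 FPKM under the short stress, below both unstressed libraries as deposited. After scaling the 2 conditions overlapped, at 1659 and 1679 against 1658 and 1692 in unstressed cells. Values at 500 mOsm lay around those of unstressed cells. Its rise of 0.17 under the long stress (SE 0.0601, limma adjusted p = 0.0246) was lost without replicate 2 of that condition (limma adjusted p = 0.0529) and on values as deposited (change 0.08, limma adjusted p = 0.287). The other stresses gave changes of 0.01 at 500 mOsm, 0.07 at 600 mOsm and -0.01 under the short stress, with limma adjusted p = 0.942, 0.481 and 0.944. The range of its 9 condition means was 0.40 on the log2 scale in RNA and 2.20 in footprints.

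Dnajb1 RNA was 103 and 103 FPKM in unstressed cells, 119 and 115 FPKM at 500 mOsm, 111 and 111 FPKM at 600 mOsm, and 125 and 115 FPKM under the long stress. It was 87.0 and 83.7 FPKM under the short stress. The libraries under the short stress lay below, and those of the other stresses above, both unstressed libraries. Dnajb1 RNA rose by 0.31 under the long stress (SE 0.0700, limma adjusted p = 0.00178). It changed by -0.21 under the short stress (SE 0.0610, limma adjusted p = 0.0101), a call lost without replicate 2 of that condition (limma adjusted p = 0.0514). At 500 mOsm the change of 0.19 (limma adjusted p = 0.145) passed without replicate 1 or replicate 2 of the unstressed cells (limma adjusted p = 0.0367 and 0.0169), and the change of 0.12 at 600 mOsm did not pass (limma adjusted p = 0.249). The lower footprint values of Dnajb1 at 600 mOsm and under the long stress thus stood beside RNA that was not lower.

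In RNA, 3 of 3 chaperones rose under the long stress, where 18.7% of 9275 transcripts rose (limma, adjusted p under 0.05). Under the short stress 1 rose, Hspa8, and 1 fell, Dnajb1, where 19.3% rose and 30.5% fell. At 600 mOsm 1 rose, Hspa8, where 3.87% rose. At 500 mOsm limma called 0 of 3, where 3.44% of transcripts were called in either direction; 2 of 3 had an unadjusted p under 0.05 and voom on recovered reads called 2. A fit on the compared groups alone ended the calls of Hspa8 at 600 mOsm (adjusted p = 0.137), Dnajb1 under the short stress (0.0657) and Hsp90ab1 under the long stress (0.145). The Hspa8 calls at both 700 mOsm exposures and the Dnajb1 call under the long stress passed in every alternative run.

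**Figure D4:**
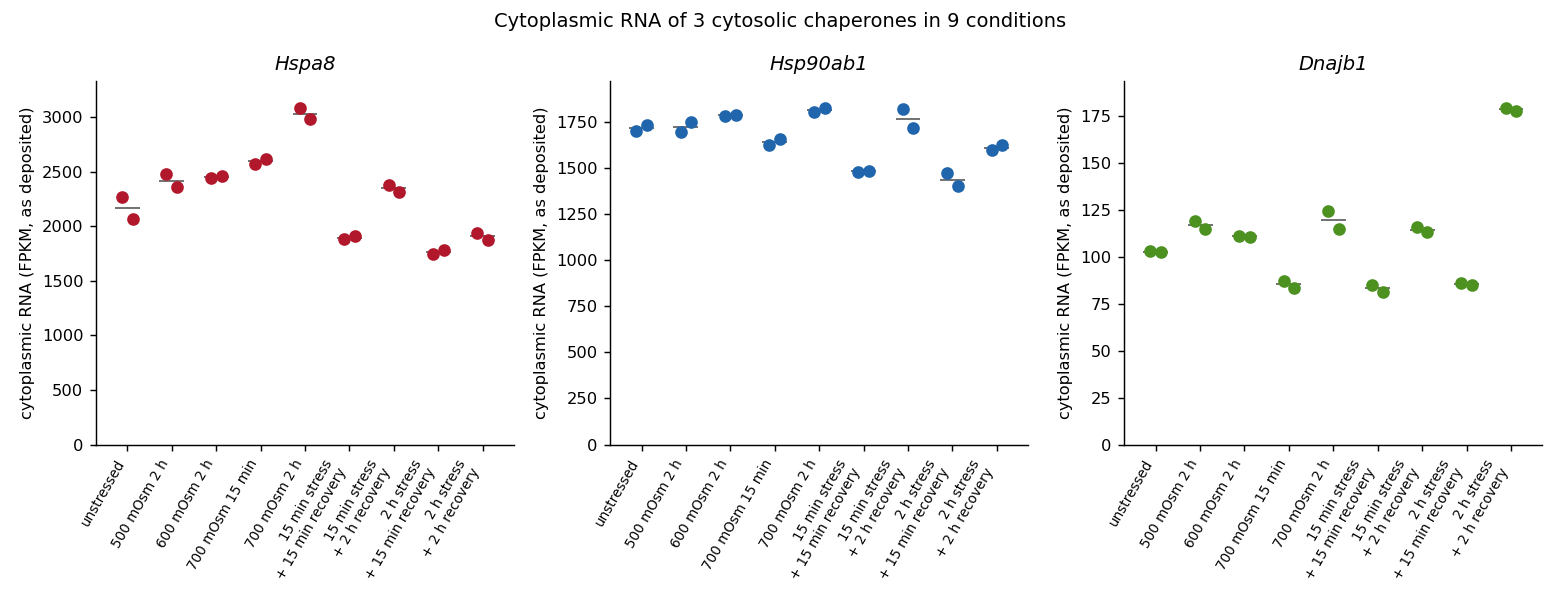
RNA of Hspa8, Hsp90ab1 and Dnajb1 in FPKM as deposited (vertical axes, starting at 0) across the 9 conditions (horizontal axes, as labelled); points are the 2 libraries and bars their mean. Hspa8 is highest under the long stress, at 3083 and 2977 FPKM, and Dnajb1 at 2 h of release from the long stress, at 179 and 178 FPKM.

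Comparisons among the stresses gave the steps between them. Between 600 and 500 mOsm limma called 0 of 3 chaperones in RNA, where 16.8% of transcripts were called, and 0 of 3 had an unadjusted p under 0.05, also with voom. Footprints at 600 mOsm changed against 500 mOsm by -0.89 for Hsp90ab1 (-0.91 to -0.86), by -1.37 for Dnajb1 (-1.64 to -1.18) and by 0.02 for Hspa8 (0.01 to 0.04). Under the long stress Hspa8 RNA was higher than at 600 mOsm by 0.39 (limma adjusted p = 3.76e-06) and Dnajb1 RNA by 0.19 (limma adjusted p = 0.00674, or 0.113 on values as deposited), so that 2 of 3 rose, where 17.5% of transcripts rose. Hsp90ab1 RNA changed by 0.11 in that comparison and did not pass (limma adjusted p = 0.0596, or 0.0473 with equal weights, 0.0436 on the compared groups alone, 0.0211 with voom and 0.0127 without replicate 1 of the long stress). Hspa8 footprints at 700 mOsm were higher than at 600 mOsm by 0.67 after scaling and by 0.08 as deposited. Between 2 h and 15 min at 700 mOsm 3 of 3 chaperones rose in RNA, where 22.4% rose: Hspa8 by 0.26, Hsp90ab1 by 0.18 and Dnajb1 by 0.52 (limma adjusted p = 0.000138, 0.0025 and 7.91e-07). Hsp90ab1 footprints between these exposures were higher by 0.52 (0.43 to 0.59).

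Translational efficiency, here the footprint change less that of RNA, has no test here because footprints have 1 sample a condition. It was at least 2-fold lower than in unstressed cells for Hsp90ab1 and Dnajb1 at 600 mOsm, at -1.38 and -2.27, and under the long stress, at -1.76 and -2.52. In those comparisons 35.3% and 42.2% of 8446 transcripts were at least 2-fold lower. Under the short stress all 3 chaperones were at or past 2-fold lower, where 47.3% of transcripts were: Hspa8 at -1.01, Hsp90ab1 at -2.09 and Dnajb1 at -5.14 with its unlisted library as 0. At 500 mOsm none of the 3 reached 2-fold, with Dnajb1 lowest at -0.98, where 17.3% of transcripts did. Hspa8 sat at the threshold under the short stress, with -1.51 on values as deposited. Under the long stress its efficiency was higher by 0.51, or by 0.13 on values as deposited, and at 500 and 600 mOsm by 0.23 each. Expressed as the ratio of scaled footprints to scaled RNA, unstressed Hsp90ab1 stood at 2.04, Dnajb1 at 1.47 and Hspa8 at 1.44. Under the long stress the order was Hspa8 at 2.05, Hsp90ab1 at 0.604 and Dnajb1 at 0.256. The unstressed ratios of Hspa8 and Dnajb1 were closer to each other than the 2 unstressed libraries of Hspa8 RNA and are not ordered here.

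**Figure D5:**
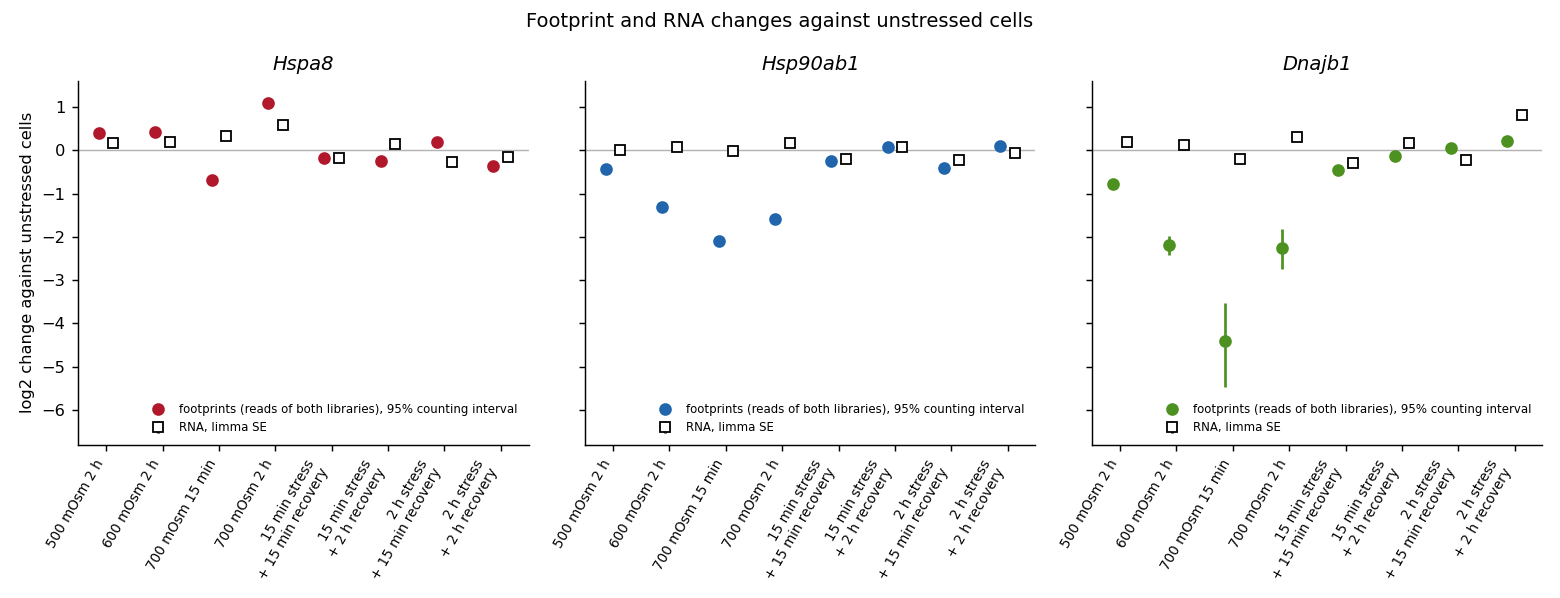
Log2 change against unstressed cells (vertical axis, shared) in 4 stresses and 4 recovery conditions (horizontal axes); filled circles are footprints from the summed reads of both libraries with 95% counting intervals, open squares RNA with the limma SE, which is often smaller than the symbol. Footprints of Hsp90ab1 and Dnajb1 drop far below RNA under stress, Hspa8 footprints reach 1.09, and Dnajb1 RNA stands at 0.83 at 2 h of release from the long stress.

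In cells released from stress the footprint values of the 3 chaperones were all within 2-fold of those of unstressed cells. After the short stress Hspa8 had 2915 and 2964 RPKM at 15 min and 2672 and 2676 RPKM at 2 h of recovery, and after the long stress 3858 and 3872 RPKM at 15 min and 2464 and 2510 RPKM at 2 h. The changes against unstressed cells were -0.19, -0.26, 0.19 and -0.37 in that order. They lay above those of 27.0%, 15.7%, 75.5% and 31.5% of 8849 transcripts. Hspa8 footprints after 2 h of recovery were thus below all unstressed libraries in both arms, and above them at 15 min of release from the long stress. Set against the long stress itself, Hspa8 changed by -0.90 (-0.93 to -0.87) after 15 min and by -1.46 (-1.49 to -1.44) after 2 h of recovery, or by -0.38 and -1.02 as deposited. Set against the short stress, Hspa8 at 15 min of release was higher by 0.50 (0.46 to 0.55), or by 1.09 as deposited, so here too the size depends on the scaling. The change at 2 h of recovery against the long stress lay above that of 8.20% of transcripts. In that comparison the median of all transcripts was 0.69 and 14.7% were at least 2-fold lower.

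In recovery from the short stress Hsp90ab1 footprints had 3178 and 3183 RPKM at 15 min and 3796 and 3779 RPKM at 2 h. In recovery from the long stress they had 2866 and 2859 RPKM at 15 min and 3901 and 3854 RPKM at 2 h. Both 2 h groups lay above, and both 15 min groups below, the unstressed libraries. Changes against unstressed cells were -0.24 and 0.08 after the short stress and -0.41 and 0.10 after the long stress. They lay above those of 21.3%, 71.4%, 26.5% and 69.4% of transcripts in that order. Against the stress that came before, Hsp90ab1 was higher by 1.86 (1.80 to 1.92) at 15 min of release from the short stress and by 1.17 (1.13 to 1.23) at 15 min of release from the long stress, where 48.3% and 42.3% of transcripts were at least 2-fold higher.

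Dnajb1 footprints released from the short stress had 118 and 118 RPKM at 15 min and 135 and 146 RPKM at 2 h. Those released from the long stress had 175 and 165 RPKM at 15 min and 186 and 179 RPKM at 2 h. The long arm lay above and the short arm below the unstressed libraries. Changes against unstressed cells were -0.46 (-0.57 to -0.35), -0.14 (-0.22 to -0.06), 0.04 (-0.07 to 0.16) and 0.22 (0.13 to 0.31) in that order. They lay above those of 7.47%, 29.9%, 63.9% and 78.3% of transcripts. At 15 min of release from the long stress Dnajb1 did not differ from unstressed cells beyond counting error, and against the long stress itself it was higher by 2.26 (1.85 to 2.79). At 15 min of release from the short stress its summed reads gave a change of 3.94 (3.06 to 5.01) against that stress. With 5 reads assumed in the unlisted library the change was 3.36. The mean of log2 values gave 4.89, or 2.92 without replicate 1 of the stressed cells. Without replicate 2 of the stressed cells it gave 6.79, with no Dnajb1 read left in that condition. Footprints of 0 of 3 chaperones were at least 2-fold from unstressed cells in the 4 recovery conditions, where 1.28%, 0.961%, 7.3% and 11.1% of transcripts were at least 2-fold higher or lower.

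RNA of the recovering cells is given for the libraries as labelled, with the doubt on 2 of the 4 groups described above. Hspa8 RNA was 1879 and 1909 FPKM at 15 min of release from the short stress and 1936 and 1877 FPKM at 2 h of release from the long stress. It was 2381 and 2309 FPKM in the libraries labelled 2 h after the short stress and 1746 and 1779 FPKM in those labelled 15 min after the long stress. Apart from those labelled 2 h after the short stress, all recovery libraries lay below both unstressed libraries. Hspa8 RNA fell by 0.19 at 15 min of release from the short stress (limma adjusted p = 0.0373) and by 0.26 in the libraries labelled 15 min after the long stress (limma adjusted p = 0.0051). The first call was lost without replicate 1 or without replicate 2 of that condition (limma adjusted p = 0.157 and 0.112). At 2 h of release from the long stress the change was -0.15 (limma adjusted p = 0.0503), and it passed without replicate 2 of the unstressed cells (limma adjusted p = 0.000187).

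Hsp90ab1 RNA was 1478 and 1485 FPKM at 15 min of release from the short stress and 1595 and 1623 FPKM at 2 h of release from the long stress. It was 1818 and 1716 FPKM in the libraries labelled 2 h after the short stress and 1474 and 1399 FPKM in those labelled 15 min after the long stress. The early libraries of both arms were the lowest of all conditions. It fell by 0.20 at 15 min of release from the short stress (limma adjusted p = 0.0224, or 0.0994 and 0.0961 without replicate 1 and without replicate 2 of that condition) and by 0.22 in the libraries labelled 15 min after the long stress (limma adjusted p = 0.0128, or 0.0577 without their replicate 2). The changes of 0.07 in the libraries labelled 2 h after the short stress and -0.06 at 2 h of release from the long stress did not pass (limma adjusted p = 0.475 and 0.471).

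Dnajb1 RNA was highest at 2 h of release from the long stress, with 179 and 178 FPKM against 103 and 103 FPKM in unstressed cells. These 2 libraries were above all other 16. The rise was 0.83 on the log2 scale (SE 0.0597, limma adjusted p = 3.78e-08), or 77.2%, and passed in every alternative run. At that time Hspa8 and Hsp90ab1 RNA did not pass, so that 1 of 3 chaperones rose, where 13.9% of 9275 transcripts did. Dnajb1 RNA also rose relative to the long stress itself, by 0.52 (limma adjusted p = 1.02e-07), and relative to the libraries labelled 2 h after the short stress, by 0.65 (limma adjusted p = 2.00e-09). Relative to the libraries labelled 15 min after the long stress it rose by 1.06 (limma adjusted p = 2.20e-12). Its footprints changed by 0.22 at that time, less than its RNA, and the difference in translational efficiency was -0.61.

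The other recovery values of Dnajb1 RNA were 85.2 and 81.4 FPKM at 15 min of release from the short stress, 116 and 113 FPKM in the libraries labelled 2 h after the short stress, and 86.4 and 85.1 FPKM in those labelled 15 min after the long stress. The early libraries of both arms lay below, and the late ones above, unstressed cells. It fell by 0.30 at 15 min of release from the short stress (limma adjusted p = 0.006) and by 0.23 in the libraries labelled 15 min after the long stress (limma adjusted p = 0.0248, or 0.0654 without their replicate 2). The change of 0.18 in the libraries labelled 2 h after the short stress did not pass (limma adjusted p = 0.083), and passed without replicate 1 or replicate 2 of the unstressed cells (0.0229 and 0.0189).

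In RNA 3 of 3 chaperones fell at 15 min of release from the short stress, where 2.59% of transcripts fell, and 3 of 3 fell in the libraries labelled 15 min after the long stress, where 6.27% fell. A fit on the compared groups alone called none of these 6 (adjusted p = 0.0641 to 0.255). In the libraries labelled 2 h after the short stress limma called 0 of 3, where 13.3% were called in either direction; 2 of 3 had an unadjusted p under 0.05 and voom called 2. Between release and the stress before it, 3 of 3 fell in RNA at 15 min of release from the short stress, where 27.3% fell, and 3 of 3 in the libraries labelled 15 min after the long stress relative to the long stress, where 29.0% fell. The short-arm falls were 0.51 for Hspa8, 0.20 for Hsp90ab1 and 0.09 for Dnajb1 (limma adjusted p = 4.99e-10, 1.20e-05 and 0.0255), the last lost without replicate 1 of the stressed cells (0.298) or without replicate 2 of the recovering cells (0.346). The long-arm falls were 0.84, 0.40 and 0.54 (limma adjusted p = 3.35e-10, 1.19e-06 and 2.31e-07). With the doubtful RNA groups exchanged, the long-arm changes of Hsp90ab1 and Dnajb1 became -0.11 and -0.13. Neither then passed (limma adjusted p = 0.0750 and 0.0645), whereas the Hspa8 call held. After 2 h of release from the long stress Hspa8 and Hsp90ab1 RNA had fallen by 0.73 and 0.23 relative to that stress (limma adjusted p = 3.13e-10 and 0.000127), 2 of 3, where 24.1% fell.

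Relative to the libraries labelled 15 min after the long stress, those after 2 h had risen in 3 of 3 chaperones, where 37.1% rose. Hspa8 rose by 0.12 (limma adjusted p = 0.0059, or 0.0752 without replicate 1 of the 2 h group) and Hsp90ab1 by 0.17 (limma adjusted p = 0.00038). Relative to the libraries labelled 2 h after the short stress, 2 of 3 fell at 2 h of release from the long stress, where 16.8% fell. These were Hspa8, by 0.29 (limma adjusted p = 6.67e-06), and Hsp90ab1, by 0.12 (limma adjusted p = 0.00897, or 0.0875 without replicate 1 of the short arm and 0.120 without replicate 1 of the long arm). With the doubtful RNA groups exchanged, Hspa8 and Hsp90ab1 change direction in both of these comparisons, and Dnajb1 stays higher in both.

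Ordered by footprint level, Hspa8 ran downward through the long stress, 600 mOsm, 500 mOsm, 15 min after the long stress, unstressed cells, 15 min after the short stress, 2 h after the short stress, 2 h after the long stress and the short stress. No neighbours in that order overlapped in their deposited values, though the 2 footprint libraries of a condition count as 1 sample. Hsp90ab1 ran downward through 2 h after the long stress, 2 h after the short stress, unstressed cells, 15 min after the short stress, 500 mOsm, 15 min after the long stress, 600 mOsm, the long stress and the short stress. Dnajb1 ran through 2 h and then 15 min after the long stress, unstressed cells, 2 h and then 15 min after the short stress, 500 mOsm, 600 mOsm, the long stress and the short stress. Neighbours did not overlap for these either in deposited values. After scaling, Hsp90ab1 at 15 min after the long stress averaged 2576 and at 500 mOsm 2550, so that these neighbours change places. The counting intervals of Dnajb1 are on scaled values. They overlapped 0 between 700 and 600 mOsm and between 15 min after the long stress and unstressed cells. Across the 9 condition means of footprints, Pearson's r was 0.94 between Hsp90ab1 and Dnajb1, -0.21 between Hspa8 and Hsp90ab1, and 0.11 between Hspa8 and Dnajb1. The likeness is common in these data: Dnajb1 ranked 864 of 8848 transcripts in likeness to Hsp90ab1. In RNA, r was 0.89 between Hspa8 and Hsp90ab1, 0.14 between Hspa8 and Dnajb1 and 0.45 between Hsp90ab1 and Dnajb1. The transcripts most like in footprints were ENSMUST00000072020 for Hspa8 (r 0.98) and ENSMUST00000097014 for Hsp90ab1 (r 0.99), which the lists do not name. These correlations describe 9 conditions that share libraries and scaling, and have no test. The footprint correlations of Dnajb1 include the short stress, with its unlisted library as 0 and 10 reads in the other. That condition is the lowest of a Dnajb1 range of 5.57 on the log2 scale, and r without it was not computed.

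Heat shock elements, inverted repeats of GAA units, are the binding sites of heat shock factors, and were looked for in promoters. The RefSeq table (GRCm38.p6) held promoter windows for 1 of the 4 genes, Dnajb1, so only its promoter is shown. The 250 bases before the first Dnajb1 start site, on the plus strand at chr8:83607925-83608174, are printed with each of the 7 GAA or TTC triplets in capitals.

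Dnajb1: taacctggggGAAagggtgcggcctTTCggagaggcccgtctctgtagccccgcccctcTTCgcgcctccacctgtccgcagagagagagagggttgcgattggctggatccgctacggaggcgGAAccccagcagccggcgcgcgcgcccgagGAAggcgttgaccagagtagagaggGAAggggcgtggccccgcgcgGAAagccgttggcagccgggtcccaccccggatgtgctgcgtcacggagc

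The triplets stood apart from each other. The heat shock element of 3 alternating GAA and TTC units with any 2 bases between neighbours, searched on both strands, was found in neither of the 300-base windows that the table gives for Dnajb1. The shorter GAANNTTC and TTCNNGAA, which lie within the full element, were not found either. Of 32851 promoter windows of that length, 0.603% held a full element and 15.1% the shorter one. These letters were not in these windows, which says nothing about sites elsewhere.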

How the data were processed

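Ribosome footprints and cytoplasmic RNA of mouse embryonic fibroblasts were measured in 36 libraries, 18 of each assay. The authors deposited RPKM per coding sequence for footprints and FPKM per transcript for RNA, 1 list per library. The submitters' processing notes name cutadapt, Bowtie, STAR and build GRCm38; versions, annotation and counting are not stated there. Reads were recovered from the deposited values, of which at least 99.99% came out as whole reads per library (relative tolerance 1e-09). Each library was scaled by its median ratio to the geometric mean of every transcript that was above 0 throughout the assay and averaged at least 10 (4619 for footprints, 5705 for RNA), and log2(value + 1) was taken where the mean scaled value was at least 2. The added 1 shrinks changes of low values, but a library taken as 0 can enlarge the mean of log2 values. For Dnajb1 under the short stress that mean gave -5.35, against -4.40 from summed reads.

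RNA was fitted with limma 3.58.1 (R 4.3.3) over 9 condition means, with group precision weights and a trended prior, two-sided, and Benjamini-Hochberg adjustment over 9275 transcripts at 0.05. The unstressed group had the lowest weight, 0.320. RNA libraries of a condition differed by a chi-square per degree of freedom between 3.44 and 47.1. Footprint changes were differences of mean log2 values, with exact 95% binomial intervals on reads, which cover counting error only. Translational efficiency was their difference from RNA changes. The limma fit and the read recovery were tested on simulated data. Footprint p-values were not used. The members and lists were chosen with earlier results of these data known; every chaperone is named in every condition whatever its values. Alternatives were deposited values, a pseudocount of 0.25, no filter, equal weights, compared groups only, voom, the replicate block, the exchanged recovery groups, each library left out, and, chosen after seeing the data, the log2 of the mean of both libraries. The tests of a difference in release between short and long stress were also chosen after seeing the data. No ID table paired these identifiers with names, so the pathway and marker lists could not be counted.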

Additional observations from a re-analysis of the deposited data

Results flagged for a closer look

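The RNA response to release differed between the short and the long stress for several chaperones, by a limma interaction term chosen after seeing the data. The term is the release effect after the short stress minus that after the long stress. At 15 min it was 0.34 for Hspa8 (limma adjusted p = 0.00011), 0.20 for Hsp90ab1 (limma adjusted p = 0.00598) and 0.45 for Dnajb1 (limma adjusted p = 3.22e-05), so RNA fell less upon release from the short stress. In the same term 51.1% of 9275 transcripts passed.

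At 2 h the term was 0.54 for Hspa8 (limma adjusted p = 7.27e-07) and 0.30 for Hsp90ab1 (limma adjusted p = 0.000256), with 54.1% of transcripts past the threshold, and -0.13 for Dnajb1, which did not pass (limma adjusted p = 0.0888, or 0.0347 without replicate 1 of the long stress). Each term uses 1 of the 2 RNA groups whose file names and labels disagree. With those groups exchanged none of the 5 passed, and Dnajb1 at 2 h did, at -0.54.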

How the results depend on the processing

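The footprint and translational efficiency counts, 7 and 10 footprint differences of at least 2-fold against unstressed cells and among conditions and 7 in translational efficiency, kept within 1.5 times of these under each alternative other than limma on the 2 footprint libraries as if they were replicates. That gave 20 and 19 calls of 24, and 20 and 19 also with the replicate block. Leaving out 1 library gave 7 and 10 footprint differences each time and 6 to 8 in translational efficiency. In RNA 13 of 24 tests against unstressed cells passed and 20 of 24 among conditions; a fit on the compared groups only gave 4 against unstressed cells, the cause of which was not tested. Leaving out 1 library gave 11 to 17 and 18 to 21. The replicate block gave 15 and 20; replicate numbers did not pair the libraries, with correlations of deviations between -0.31 and 0.31 (median 0.01) over 36 pairs of groups.

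With the 2 doubtful RNA recovery groups exchanged, directions turned. The changes against unstressed cells labelled 2 h after the short stress became -0.26 for Hspa8, -0.22 for Hsp90ab1 and -0.23 for Dnajb1, and those labelled 15 min after the long stress 0.14, 0.066 and 0.18. The change of 2 h against 15 min after the long stress became -0.29 for Hspa8 and -0.12 for Hsp90ab1, and that of the long against the short arm at 2 h 0.12 and 0.17. The release terms at 15 min became -0.067 for Hspa8 and -0.091 for Hsp90ab1. Without 1 library, changes near 0 turned: Hsp90ab1 ranged between -0.0054 and 0.0345 at 500 mOsm and between -0.0214 and 0.0064 at 700 mOsm for 15 min, and Hspa8 between -0.0143 and 0.0589 at 600 against 500 mOsm. Depth limits Dnajb1 footprints at 700 mOsm, where it was not listed in 1 library at 15 min.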
